A study of Mus musculus with 2 samples.

Results

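The nuclear genome encodes most subunits of the mitochondrial respiratory chain and of ATP synthase, and 85 such genes were followed here in the mouse hippocampus. They were chosen by gene symbol (the Nduf subunit series, Sdha to Sdhd, symbols that start with Uqcr or Atp5, and the Cox4 to Cox8 series) among genes with a transcript annotated as protein-coding. The rule took 85 of the 55536 annotated genes, under 84 symbols, since Atp5o has a second gene entry. By complex there were 35 subunits of complex I, 4 of complex II, 8 of complex III, 20 of complex IV and 18 of complex V, with Ndufa4 and Ndufa4l2 counted in complex IV, where the Ndufa4 protein sits. The symbol rule itself uses no measured value.

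Total RNA came from 14-day-old male mice of the hybrid strain B6CASTF1/J (C57BL/6J by CAST/EiJ), taken from hippocampus. The series has 1 group of 2 libraries, numbered as biological replicates 1 and 2, so no treatment or genotype was compared. Each label lists 3 males without stating that their RNA was pooled. Hippocampal neuron markers (Camk2a, Slc17a7, Neurod6, Prox1, Wfs1, Fibcd1 and Bok) were all above 1 TPM (a level per transcript length, scaled to a fixed total per library) in both libraries, with a median of 56.1. Values below are means ± SD over n = 2 libraries, or the replicate 1 value followed by that of replicate 2. The p-values set the difference between these libraries against counting noise, or against an assumed variation where stated. They estimate no spread between biological replicates.

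Complex I (NADH dehydrogenase) and complex II (succinate dehydrogenase) pass electrons to ubiquinone. Complex III (cytochrome bc1) hands them on to cytochrome c, and complex IV (cytochrome c oxidase) transfers them to oxygen. Complexes I, III and IV pump protons as they do so, and complex V (ATP synthase) makes ATP from the returning flow. Several complex IV subunits and the complex V subunit c have alternative genes that in mammals are known for heart and muscle, lung, testis or low-oxygen expression. Neurons depend heavily on this chain, and the hippocampus is in a period of synapse formation and myelination at this age.

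The sequences that matter most for reading these data are those that genes share. Subunit c, the proton-carrying ring of ATP synthase, is encoded by Atp5g1 (chr11:96068852-96075670, mm10), Atp5g2 (chr15:102662864-102672352) and Atp5g3 (chr2:73908447-73911326), whose mature protein is known to be the same while the import leaders differ. The last 228 coding bases of each, stop codon included, are shown from GENCODE M21 transcripts, 5′ to 3′, with capitals at the 58 positions where the genes are not all alike. All lie on the minus strand, within chr11:96073104-96073635, chr15:102663014-102665166 and chr2:73908593-73909296, introns included in each span.
Atp5g1: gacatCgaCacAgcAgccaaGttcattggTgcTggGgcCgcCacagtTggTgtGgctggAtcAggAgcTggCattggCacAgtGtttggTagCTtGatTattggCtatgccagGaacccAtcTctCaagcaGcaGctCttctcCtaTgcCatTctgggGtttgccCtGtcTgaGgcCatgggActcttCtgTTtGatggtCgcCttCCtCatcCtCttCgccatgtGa
Atp5g2: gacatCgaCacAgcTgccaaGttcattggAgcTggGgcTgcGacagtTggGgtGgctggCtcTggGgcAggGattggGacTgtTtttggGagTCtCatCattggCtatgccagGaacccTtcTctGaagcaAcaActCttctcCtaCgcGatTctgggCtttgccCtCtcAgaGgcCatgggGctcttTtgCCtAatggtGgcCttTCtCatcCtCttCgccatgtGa
Atp5g3: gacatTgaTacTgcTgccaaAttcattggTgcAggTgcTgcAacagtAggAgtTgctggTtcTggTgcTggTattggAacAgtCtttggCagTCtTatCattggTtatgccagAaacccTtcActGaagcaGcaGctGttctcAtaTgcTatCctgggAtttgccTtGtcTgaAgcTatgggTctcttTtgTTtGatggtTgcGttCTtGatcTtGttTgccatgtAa

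Over this stretch Atp5g1 and Atp5g2 were identical at 194 of 228 bases (85.1%), Atp5g1 and Atp5g3 at 182 (79.8%) and Atp5g2 and Atp5g3 at 179 (78.5%). The longest run that any pair shared was 21 bases. The pseudogene Gm10175 on chromosome 7, a transcribed processed copy, was identical to Atp5g2 at all 441 coding bases. By these annotated sequences, a read from that stretch has no base that separates Atp5g2 from Gm10175. It has many that separate Atp5g2 from the other subunit c genes. The CAST/EiJ alleles of these hybrid animals were not compared.

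Cox7c, a small subunit of complex IV, is shown next because more than 1 copy of it received reads. Its whole coding sequence spans chr13:86045753-86046675 (mm10, minus strand, introns included) and is set above the matching stretch of the transcribed processed pseudogene Gm10012 at chr17:25901862-25902053 (plus strand), with capitals at the 2 bases that differ.
Cox7c: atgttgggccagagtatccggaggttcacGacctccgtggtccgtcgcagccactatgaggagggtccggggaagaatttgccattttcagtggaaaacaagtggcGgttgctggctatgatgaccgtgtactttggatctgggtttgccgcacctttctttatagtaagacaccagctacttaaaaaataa
Gm10012: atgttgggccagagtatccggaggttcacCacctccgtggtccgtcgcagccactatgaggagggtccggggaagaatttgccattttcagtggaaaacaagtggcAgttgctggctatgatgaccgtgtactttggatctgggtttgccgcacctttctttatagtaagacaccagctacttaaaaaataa

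Another processed pseudogene on chromosome 11, Gm12338, was identical to Cox7c at all 192 coding bases. Across the 85 genes, 20 shared at least 1 identical window of 100 bases, on the same strand, with a transcript of another gene, and 65 shared none. The partners numbered 31 genes, of which 23 are annotated as pseudogenes. Copies identical to the gene over its whole coding sequence and holding a mean count of at least 100 numbered 4, and they were copies of Atp5g2, Atp5l, Cox7c and Ndufb4.

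The subunits were among the more abundant messages of this tissue, and their levels fell into an abundant and a scarce class. Of the 85 genes, 81 were detected, meaning that each library gave a TPM of 1 or more, which is 95.3% of them against 58.6% of protein-coding genes off the mitochondrial genome. The median over all 85 was 109.6 TPM, with library medians of 107.8 and 112.8, against 15.2 TPM for the 12911 detected protein-coding genes. In 66 subunits the mean lay above 72.8 TPM, the 90th percentile of those genes. Some 74 subunits had a mean of 29.9 TPM or more and 11 a mean below 14, and no subunit lay between 14 and 20. The 11 scarce entries were all in complexes IV and V, namely Cox4i2, Cox6a2, Cox6b2, Cox7a1, Cox7b2, Cox8b, Cox8c, Ndufa4l2, Atp5g2, Atp5s and the second Atp5o entry. In the kallisto layout, another deposited quantification of these libraries, Atp5g2 and Atp5s were above 14 TPM.

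**Figure D1:**
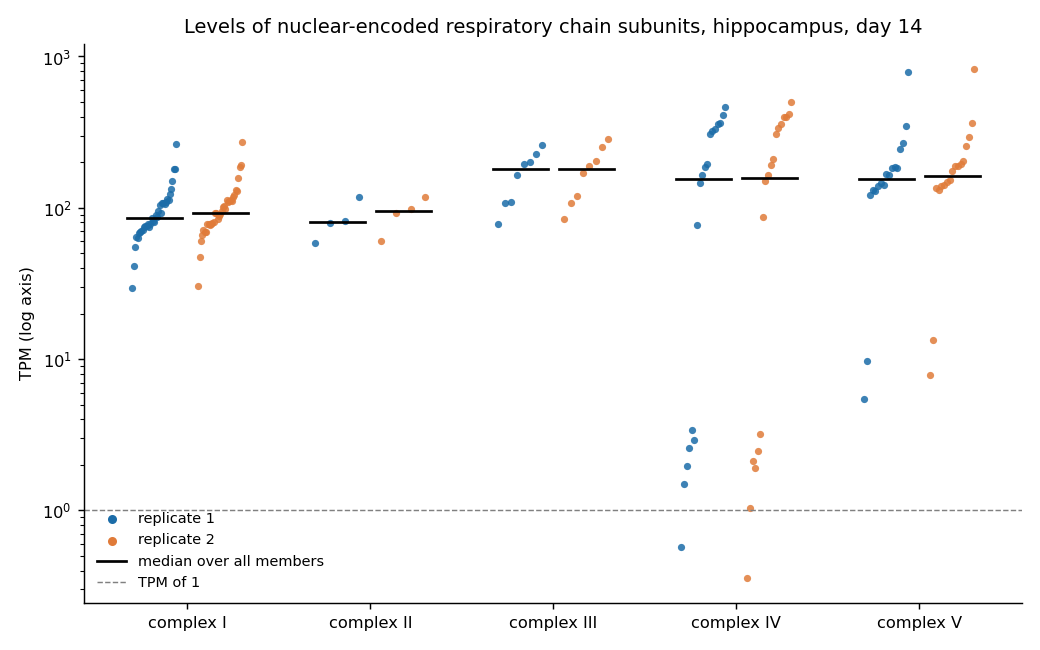
TPM on a log axis of each subunit in replicate 1 (blue) and replicate 2 (orange), by complex, with black bars at the median over all members and a dashed line at a TPM of 1; entries listed at 0 in either library are not drawn. In the gene tables drawn here complexes I, II and III have no subunit below 29.35 TPM, while complexes IV and V each have entries under 14 TPM. Of those in complex V, Atp5g2 and Atp5s were above 14 TPM in the kallisto layout.

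Complexes III, IV and V had higher median subunit levels than complexes I and II in both libraries. Complex III had medians of 179.8 and 179.2 TPM, complex V of 155.7 and 162.9, and complex IV of 155.6 and 157.8. Complex II had 80.9 and 95.5 TPM, and complex I had 85.2 and 92.4. The library values of the first set do not overlap those of the second, whereas complex I overlaps complex II, and complex IV overlaps complex V. The order within complexes III to V depended on the quantification, since the deposited kallisto-layout tables gave medians of 308.7, 357.8 and 301.2 TPM for complexes III, IV and V, against 122.6 for complex II and 158.1 for complex I.

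In complex I all 35 subunits were detected, across a 9-fold range. Ndufa3, a small accessory subunit, was highest at 265.75 and 273.2 TPM, ahead of the accessory subunits Ndufb9 with 180.54 and 190.43 TPM and Ndufb8 with 181.11 and 184.65 TPM. The lowest were Ndufb4 with 29.35 and 30.51 TPM and Ndufb3 with 41.27 and 47.33 TPM. Ndufv1, which binds NADH and the flavin, had 104.89 and 97.56 TPM, and Ndufs1 with its iron-sulfur clusters had 68.92 and 68.69 TPM, both below these 3 genes. The values for Ndufb9 and Ndufb8 overlap between libraries, and the Ndufa3 values lie above both in the gene tables. In the kallisto layout Ndufa3 had 165.2 and 152.1 TPM, below Ndufb8 with 392.3 and 404.1 TPM and Ndufb9 with 325.9 and 342.3 TPM.

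Complex II is the sole complex of the chain with no mitochondrially encoded subunit. Sdha, its flavoprotein, had 117.53 and 118.36 TPM, the iron-sulfur subunit Sdhb 79.49 and 92.97 TPM, and the membrane anchors Sdhc and Sdhd 82.35 and 98.01 TPM and 58.75 and 60.67 TPM. The 4 genes therefore lay within a 1.98-fold range of means, with Sdhb and Sdhc overlapping.

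In complex III the highest genes encode small subunits, although a further small subunit, Uqcrb, had 109.8 and 119.41 TPM. Uqcr11 had 260.02 and 283.23 TPM, Uqcrq 225.83 and 251.53 TPM and Uqcr10 201.1 and 202.94 TPM. The core proteins Uqcrc1 and Uqcrc2 had 165.26 and 169.73 TPM and 107.3 and 107.47 TPM. Lowest was Uqcrfs1, the Rieske iron-sulfur protein that passes electrons to cytochrome c1, with 77.66 and 84.45 TPM.

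Complex V held the most abundant member of all. Atp5b (chr10, the catalytic beta subunit) had 788.22 and 821.73 TPM, or 805 ± 23.7, followed by the alpha subunit Atp5a1 with 347.86 and 362.08 TPM and by Atp5g3 with 269.19 and 295.75 TPM. The remaining members of the abundant class were between 129.1 TPM for Atp5j2 and 250.1 TPM for Atp5g1. Atp5s, also called factor B, had 9.73 and 13.32 TPM, and 18.33 and 22.36 TPM in the kallisto layout.

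Most paralogue pairs of complex IV were far from balanced: the broadly expressed gene was 71.4 to 356 times the alternative in 5 of them. These are ratios of levels per length in the same library, on the log2(TPM + 0.1) scale, and they moved by over 1.5 times for Cox7a1 over Cox7a2 in the kallisto layout (log2 ratio -7.26), for Cox4i2 over Cox4i1 with a pseudocount of 1 TPM (-7.74) and for Cox6b2 over Cox6b1 with posterior mean TPM (-6.62). A pair was called different where the sign was shared by both libraries and the mean exceeded 0.5 and 2 SD. No test was applied to the pairs, because the smallest two-sided p that an exact sign-flip test over 2 libraries allows is 0.5.

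Cox4i2 is the low-oxygen and lung form of the regulatory subunit 4. It had 1.5 and 1.04 TPM, from 19 and 14 counts, while Cox4i1 had 464.66 and 497.09 TPM, a log2 ratio of -8.48 ± 0.41 (SD, n = 2). Cox6a2, the heart and skeletal muscle form of subunit 6a, had 3.41 and 2.48 TPM, against 362.94 and 396.03 TPM for Cox6a1, a log2 ratio of -6.98 ± 0.40. Both alternative genes were thus below 1% of their partner in each library.

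Cox7a1, also a heart and muscle form, had 2.59 and 1.9 TPM, against 165.39 and 165.79 TPM for Cox7a2 (log2 ratio -6.16 ± 0.30). Ndufa4l2, known as a target of hypoxia-inducible factor, had 2.91 and 3.18 TPM, against 358.37 and 398.21 TPM for Ndufa4 (log2 ratio -6.91 ± 0.02). Cox6b2, known from testis, had 1.95 and 2.13 TPM, against 332.41 and 357.54 TPM for Cox6b1 (log2 ratio -7.33 ± 0.01).

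Cox7a2l is not a plain alternative of this kind: its protein is known to help join complexes III and IV into supercomplexes. It had 77.44 and 86.43 TPM, against 165.39 and 165.79 TPM for Cox7a2, so it stood at 46.8% and 52.1% of Cox7a2 (log2 ratio -1.02 ± 0.11). Cox7a2l therefore belonged to the abundant class, which was defined by these same TPM values.

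The remaining alternatives were at the limit of detection. Cox8b, the heart and muscle form of subunit 8, had 3 and 2 counts, or 0.14% (counting interval 0.0288% to 0.408%) and 0.0861% (0.0104% to 0.311%) of Cox8a. Cox7b2 had 0 and 2 counts, and the 2 counts of replicate 2 make 0.14% of Cox7b (0.017% to 0.506%). Cox8c, known from testis, had no count in either library, with upper limits of 0.125% and 0.115% of Cox8a. If set to a floor of 3 counts per library, it would be 985-fold and 1065-fold lower than Cox8a. Intervals are exact Poisson 95% limits and cover counting error only.

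**Figure D2:**
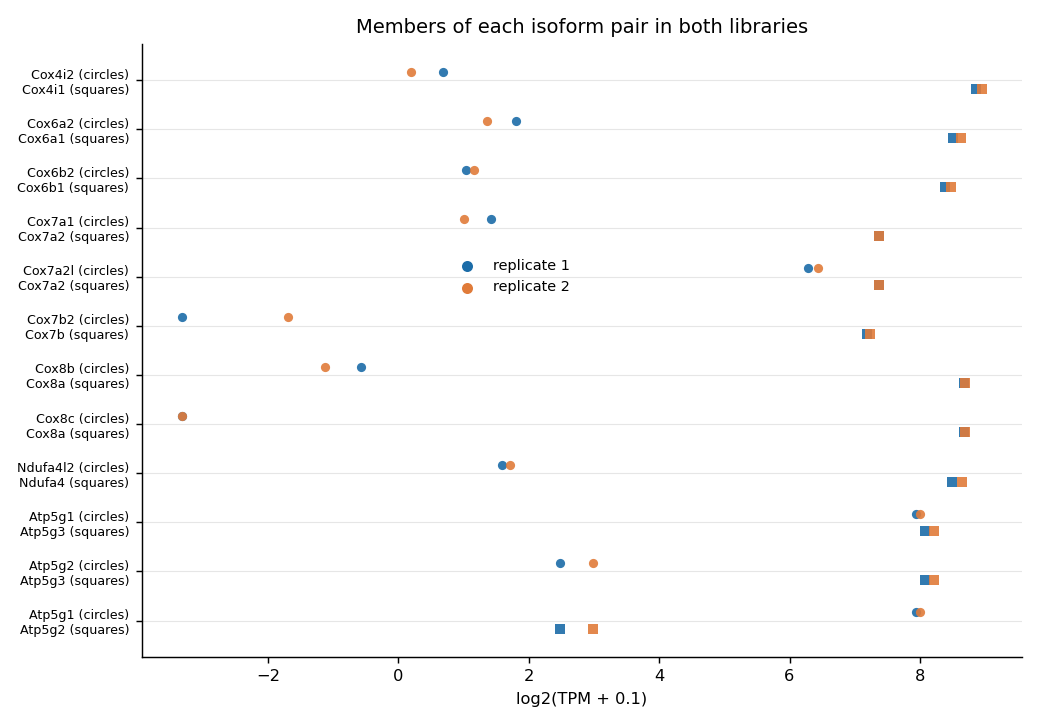
Levels as log2(TPM + 0.1) of the first gene (circles) and the second gene (squares) of each pair, in replicate 1 (blue) and replicate 2 (orange). Circles lie far left of squares except for Cox7a2l beside Cox7a2, at -1.02 on the log2 scale, and for Atp5g1 beside Atp5g3, at -0.17; in the bottom row Atp5g1 lies right of Atp5g2.

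Bulk tissue does not say which cells hold these few transcripts, and fewer cells of a type cannot be told apart from less RNA per cell. Of 8 striated muscle markers 1 was detected, Acta1 at 2.98 and 2.63 TPM, with Ckm at 0.04 and 0 TPM, and summed TPM over the list was 4.11 and 3.92. All 4 spermatid markers were listed at 0. All 8 mural cell markers were detected, with summed TPM of 95.3 and 101.2 and a median of 5.09, and all 5 parvalbumin interneuron markers, with summed TPM of 80.2 and 76.5 and a median of 12.8. Their part in the levels of the alternative subunits was not tested.

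Subunit c was divided mainly between Atp5g1 and Atp5g3 in the gene tables. Atp5g1 had 245.37 and 254.89 TPM, against 269.19 and 295.75 TPM for Atp5g3, a log2 ratio of -0.17 ± 0.06 that was not called. Atp5g2 had 5.45 and 7.81 TPM, which put it at 2.02% and 2.64% of Atp5g3 (log2 ratio -5.41 ± 0.27) and gave a log2 ratio of Atp5g1 over Atp5g2 of 5.24 ± 0.32. The deposited standard deviation of the Atp5g2 count, which measures how uncertainly reads were assigned, was 28.4% and 24.3% of the count, the highest of any tested member.

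Reads that match Atp5g2 were divided differently by the 2 quantifications. The gene tables gave Atp5g2 66.14 and 103.62 counts, and its identical copy Gm10175 1147.86 and 1248.38 counts, or 93.4% of their sum. The kallisto-layout tables, made from the same libraries, gave Atp5g2 995.6 and 1119 counts and Gm10175 42.42 and 0. The sum of the pair differed less, at 1214 and 1352 in the gene tables and 1038 and 1119 in the kallisto layout. By the kallisto-layout values Atp5g2 had 167.2 and 175.4 TPM, and the log2 ratios moved to -1.46 for Atp5g2 over Atp5g3, 0.94 for Atp5g1 over Atp5g2 and -0.52 for Atp5g1 over Atp5g3, the last of which was then called. Atp5g2 was the lowest of the subunit c genes in both kinds of table. The size of its gap to the others depended on the table, and its membership of the scarce class held in 1 of the 2 kinds of table.

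Ndufb4, an accessory subunit of complex I, also gained counts in the kallisto layout while its copy lost them. Unlike for Atp5g2, the sum of gene and copy was not nearly kept. It was 875 and 947 in the gene tables and 488 and 532 in the kallisto layout. Its copy Ndufb4c on chromosome 15, identical over all 390 coding bases, had 571.18 and 624.03 counts, against 303.82 and 322.97 for Ndufb4. The kallisto layout gave Ndufb4c 0 in both libraries and Ndufb4 488 and 532 counts, with 150.2 and 147 TPM. The place of Ndufb4 as the lowest complex I subunit therefore did not hold across tables.

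Gm12338 and Gm10012 together had 1063 and 1210 counts in the gene tables, or 40.4% of the counts given to Cox7c and these copies. Gm12338, annotated at 192 bases, had a level of 444.46 and 495.55 TPM, against 184.89 and 191.65 TPM for Cox7c, although it had fewer counts, at 834.12 and 990.44 against 1600.61 and 1755.69. Both copies were at 0 in the kallisto layout. In all, 11 copies of 10 subunits had a mean count of at least 100. They summed to 4642 and 5253 counts in the gene tables and to 188.8 and 127.3 in the kallisto layout, with 6 of the 11 at 0 in both libraries there. The other subunits with such a copy were Atp5l, Ndufs5, Atp5h, Cox7a2l, Ndufa12, Atp5g1 and Cox5b, for which copies held between 7.53% and 21.3% of the sum. The copy of Cox5b, Gm11273, is annotated as protein-coding.

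**Figure D3:**
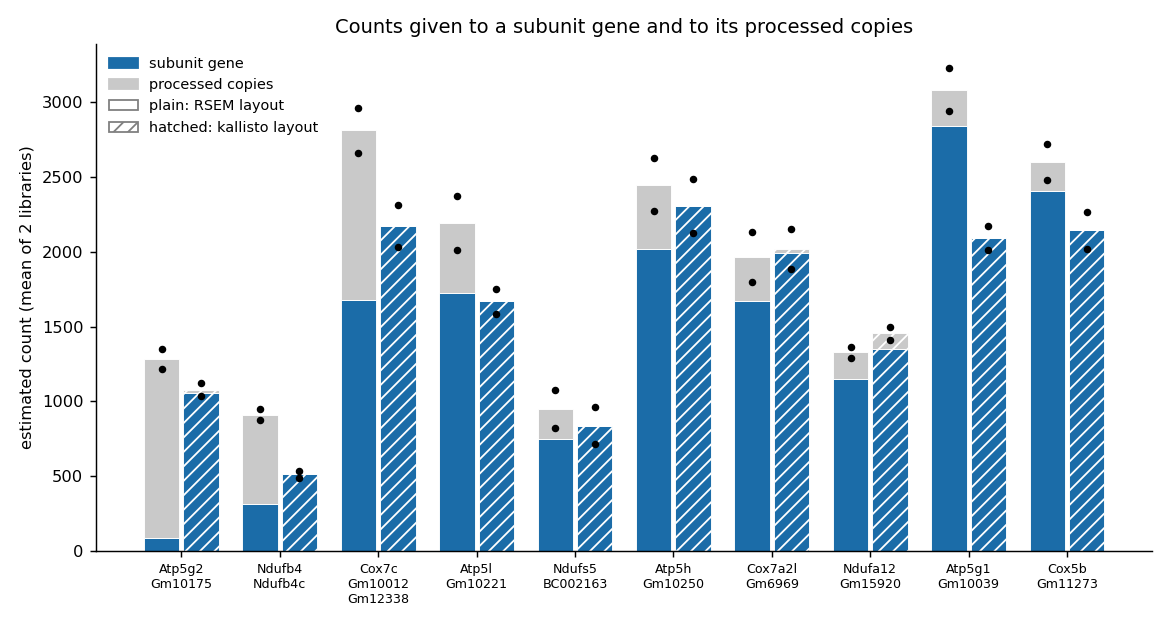
Estimated counts (mean of 2 libraries, black points for the summed value of each library) of a subunit gene (blue) and of its processed copies (grey) in the RSEM-layout gene tables (plain) and the kallisto-layout tables (hatched). Grey takes most of the bar for Atp5g2 and Ndufb4 in the plain bars, at 93.4% and 65.6% of the sum, and is at or near 0 in the hatched bars.

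Away from these copies the assignment of reads was firm by the deposited standard deviation, which describes the gene tables alone. Ndufa1 had a standard deviation of 0 in both libraries, yet its counts differed between the quantifications, as given below. Of the 81 members tested below, 68 had a deposited standard deviation that did not exceed 0.1% of their count, and 1 (Atp5g2) was above 5%, which is 1.23% of them against 6.2% of all genes tested. Ndufb4, Atp5l and Cox7c lay between 2% and 5% in at least 1 library. The second Atp5o entry, which had 0.15 and 0 counts, was not tested. A symbol match without a protein-coding transcript kept 12 entries out of the 85. Of these Ndufb1-ps, annotated as a noncoding RNA from a bidirectional promoter, had 454 and 465 counts, and apart from Ndufb4c the rest had 7.02 counts or fewer.

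The detected subunits were short, and the counts of the 2 kinds of table were closest for the longest of them. The detected subunits had a median transcript length of 668 bases, against 2517 bases for detected protein-coding genes, and 77.8% of them, against 8.18%, were under 1000 bases. The gene tables took 99 bases off the length to obtain the effective length, and the kallisto layout took off 346.1. Counts in the kallisto layout were under 1/1.5 of those in the gene tables for 17 of 81 members, with Ndufa1 lowest at 195 and 188 against 696 and 758 counts, and over 1.5 times for Atp5g2 and Ndufb4. For the 18 subunits of at least 1000 bases the median ratio of counts was 1.01, with a range from 0.855 to 1.19. For the 31 subunits from 500 to under 700 bases it was 0.774, from 0.427 to 1.63. The 14 under 500 bases had a median of 0.797 and the 18 from 700 to under 1000 bases one of 0.914. The median ratio of TPM was 1.45, 1.83, 1.77 and 1.68 from the shortest class to the longest and did not follow length. The Spearman correlation of mean TPM between the 2 kinds of table was 0.900 over the 81 detected members, which share libraries, so it describes the quantification and not the tissue.

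**Figure D4:**
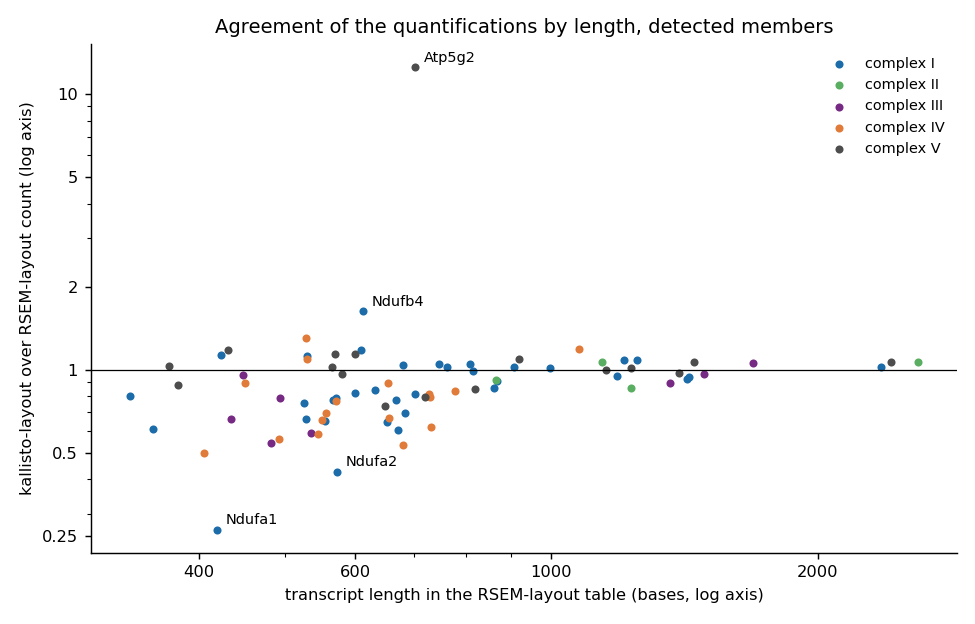
Ratio of kallisto-layout to RSEM-layout counts (log axis) against transcript length in bases (log axis) for the 81 detected members, coloured by complex, with a line at a ratio of 1. Subunits of at least 1000 bases lie between 0.855 and 1.19, and shorter ones spread from 0.263 for Ndufa1 to 12.5 for Atp5g2.

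Subunits with a transcript choice mostly used coding forms. Of the 81 detected members 72 had more than 1 annotated transcript, and the median of these had 95.8% of its TPM in protein-coding transcripts (89.4% in the kallisto layout). Both libraries had the same leading transcript for 69 of the 72, and both kinds of table for 45. For Ndufv3 and Atp5c1, whose forms differ in coding length, the leading form was the same in both libraries and both kinds of table. Ndufv3-202, with 312 coding bases before the stop codon, took 92.5% and 94.6% of the TPM of Ndufv3, a flavoprotein-module subunit of complex I, and the long form Ndufv3-201, with 1404 coding bases, took 4.28% and 3.53%. For Atp5c1, the gamma subunit that forms the rotor stalk, Atp5c1-203 with 894 coding bases took 86.2% and 86.1%, and Atp5c1-201 with 891 took 9.67% and 10.2%. In the kallisto layout Atp5c1-203 took 54.8% and 56.7%, and Atp5c1-201 took 5.53% and 5.07%.

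Transcripts of equal coding length were divided differently by the 2 kinds of table for Cox4i1, but not for every gene. Cox4i1-201 took 93.6% and 97.0% of Cox4i1 in the RSEM-layout transcript tables, while Cox4i1-205 took 84.2% and 83.7% in the kallisto layout, and both carry 507 coding bases. For Atp5g3, Atp5g3-201 led Atp5g3-202 in both, at means of 70.8% and 26% in the RSEM layout and 54.2% and 28.2% in the kallisto layout, with 423 coding bases each. Some 9 members led with a transcript that is not annotated as protein-coding, against 15 in the kallisto layout, and 8 had under 50% of their TPM in coding transcripts in both kinds of table. Ndufa3, the highest complex I gene in the gene tables, had 92.1% of its TPM in Ndufa3-204, annotated for nonsense-mediated decay, in both libraries. That transcript was at 0 in the kallisto layout, where the retained-intron transcript Ndufa3-205 led with a mean of 64.9% and the coding share was 29% (6.52% in the RSEM layout). Ndufs4, a complex I subunit whose loss causes Leigh syndrome in humans, led with the nonsense-mediated decay transcript Ndufs4-204 in both, at means of 46.5% and 53.2%.

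The subunits differed little between the libraries. An exact two-sided binomial test of the counts, with TMM library scaling (trimmed mean of M-values) and adjustment by Benjamini-Hochberg over 18322 genes with a mean count of at least 10, compares these 2 libraries beyond counting noise. It called 22.8% of all genes, of which replicate 1 was the higher library for 10.3% of those tested and replicate 2 for 12.5%. Of the 81 subunits tested, 9 (11.1%) were called, 0 of them higher in replicate 1 and 9 higher in replicate 2. Their median count was above that of all genes tested, at 1440 against 357.5. The median log2 ratio of replicate 1 over replicate 2 was -0.03 over the subunits and -0.00 over all genes tested.

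The largest of the 9 differences were small. Ndufs5, an accessory subunit of complex I, had 647.08 counts in replicate 1 and 849.5 in replicate 2, a log2 ratio of -0.25 (adjusted p = 0.0051 by the exact binomial test). Ndufa8 had 1198 and 1502 counts (-0.19, adjusted p = 0.0057), Ndufa11 798 and 1001 (-0.19, adjusted p = 0.031) and Sdhb 1670 and 2080 (-0.18, adjusted p = 0.0016). Uqcrq had 1747 and 2109 counts (-0.13, adjusted p = 0.024). The others were Ndufa4 at -0.11 (adjusted p = 0.02), Atp5g3 at -0.09 (0.044), Cox4i1 at -0.07 (0.021) and Atp5b at -0.06 (0.00038). Atp5b, with the smallest of the 9 ratios, had the largest counts, at 20586 in replicate 1 and 23576 in replicate 2.

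With the ERCC spike-ins (synthetic RNAs added in known amounts) as the scale in place of TMM, 45 subunits were called, all higher in replicate 2. They made 55.6% of the subunits tested, against 35.6% of all genes, where 5515 of the 6515 called were higher in replicate 2. That scale moved the median of all genes to -0.11 and of the subunits to -0.14, so relative to all genes the subunits stayed at -0.03. With edgeR's exact test at an assumed biological coefficient of variation of 0.1, 0 of 81 were called and 0 had an unadjusted p under 0.05. That test called 0.944% of all genes.

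**Figure D5:**
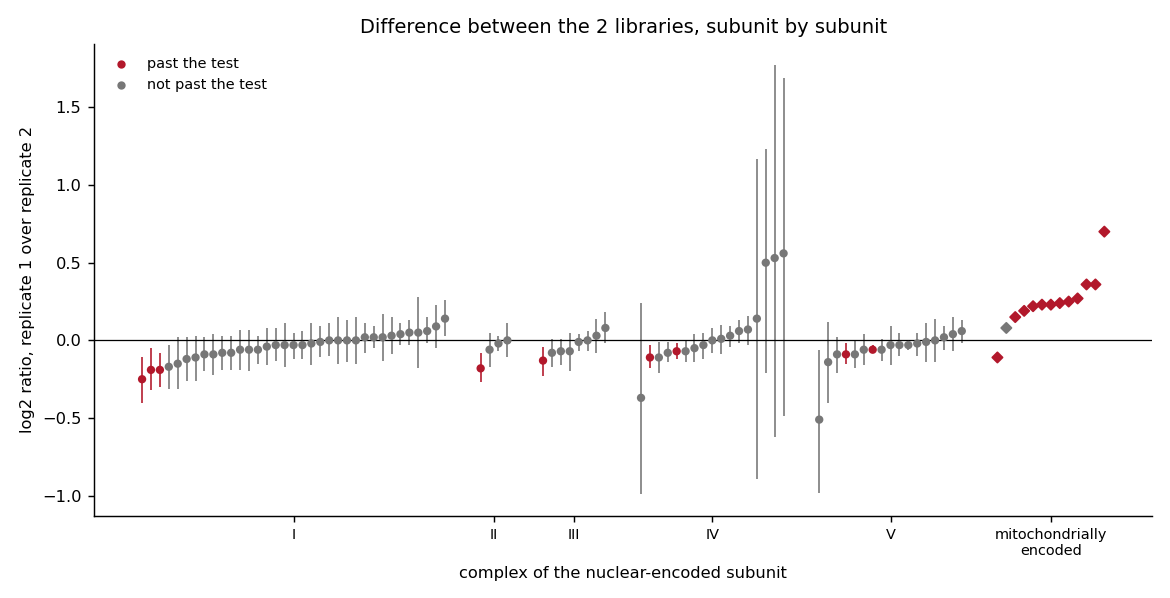
Log2 ratio of replicate 1 over replicate 2 for each tested subunit, in order of ratio within each complex, with vertical lines for the 95% counting interval, and for the 13 mitochondrially encoded subunits (diamonds, no interval drawn). Points past the test are red; among the nuclear-encoded subunits all 9 lie below 0, and of the mitochondrially encoded ones 11 lie above 0 and 1 below.

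The mitochondrially encoded partners of these subunits did not share the pattern. Of the 13 protein-coding genes of the mitochondrial genome, 11 were higher in replicate 1, 1 (mt-Co3) was higher in replicate 2 and 1 (mt-Nd6) did not pass the test, with a median log2 ratio of 0.23. Beside these and the marker counts below, 10.3% of all genes tested were called higher in replicate 1 and 12.5% higher in replicate 2. The libraries differed in other ways that were measured. Mitochondrial ribosomal RNA took 7.13% of the counts in replicate 1 and 5.64% in replicate 2. All 6 markers of myelinating oligodendrocytes were higher in replicate 1 (median log2 ratio 1.12, summed TPM 1635 against 872.3 in replicate 2), as were all 4 thalamus markers (0.89, summed TPM 49.1 against 27.7) and the 3 tested of 4 choroid plexus markers (1.22, summed TPM 88.4 against 46.6). Of the 7 hippocampal neuron markers 4 were higher in replicate 2 and 0 in replicate 1 (median -0.07, summed TPM 2191 against 2302). The part of these differences in those of the subunits was not tested.

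Nuclear-encoded messages stood well below mitochondrially encoded ones in level. The median TPM was 107.8 in replicate 1 and 112.8 in replicate 2 over the 85 nuclear genes, and 2179 and 1903 over the 13 mitochondrial genes, a log2 ratio of -4.21 ± 0.18 (SD, n = 2) or 18.5-fold. By complex the log2 ratio was -4.06 ± 0.24 for complex I, -4.21 ± 0.12 for complex III, -3.27 ± 0.10 for complex IV and -4.10 ± 0.22 for complex V. In complex IV the median of 3 genes is mt-Co3, since mt-Co1 had 5913.14 and 5263.09 TPM and mt-Co2 189.96 and 120.77 TPM. The expected counts of these genes were not whole numbers, with 2242.53 and 1518.34 for mt-Co2. Some of their reads were thus shared with other entries, and that sharing was not examined.

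Assembly factors were below the subunits they assemble. The median was 16.1 TPM for 15 complex I factors, 12.8 for 4 complex II factors, 22.2 for 6 complex III factors and 15.2 for 18 complex IV factors, all of which were detected. Highest in each were Ndufaf7 with 25.48 and 29.0 TPM, Sdhaf2 with 24.16 and 27.71 TPM, Uqcc2 with 69.13 and 75.13 TPM and Cox14 with 51.78 and 57.12 TPM. For ATP synthase, 5 genes had a median of 20.9 TPM, with Atpif1, the inhibitor that binds the enzyme when the proton gradient collapses, at 244.68 and 272.52 TPM. Between the libraries 1 of 15 complex I factors (Timmdc1, higher in replicate 2), 1 of 6 complex III factors (Ttc19, higher in replicate 1) and 2 of 5 ATP synthase genes (Atpaf1 higher in replicate 1 and Atpif1 higher in replicate 2) were past the test, and 0 of the 4 complex II and 0 of the 18 complex IV factors (0 and 1 at an unadjusted p under 0.05).

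Other genes of the same pathway ranged widely in level. The subunits Usmg5 (of ATP synthase), Ndufab1 (of complex I) and Cyc1 (cytochrome c1), whose symbols fall outside the rule, had means of 377, 129.6 and 91.2 TPM. Somatic cytochrome c (Cycs) had 22.39 and 20.29 TPM, and the testis form Cyct was listed at 0. The 17 genes of pyruvate dehydrogenase and the citric acid cycle had a median of 72.5 TPM, with Mdh2 (malate dehydrogenase) at 194.13 and 210.24 TPM, and 1 of them (Cs, higher in replicate 2) was past the test. The 12 regulators of mitochondrial gene expression had a median of 11.8 TPM, with Esrra at 22.05 and 21.15 TPM, Yy1 at 22.5 and 20.22 TPM, the coactivator Ppargc1a at a mean of 21.1 TPM and Nrf1 at 9.56 and 9.09 TPM, and 0 of them passed (1 at an unadjusted p under 0.05). Over all genes tested 22.8% passed.

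Some of those regulators have known DNA motifs, and 66 of the 84 symbols had a promoter (250 bases before to 50 after the start) in the RefSeq table for GRCm38.p6. The NRF1 motif GCGCANGCG was found on either strand in 20 of the 66 (30.3%), against 7.03% of the 27025 genes in the table. The ETS motif CCGGAAG, bound by Gabpa among others, was found in 16 (24.2%), against 9.93%, and the YY1 motif AAGATGGCG in 7 (10.6%), against 1.64%. At least 1 of the motifs was in 35 (53%), against 16.5%. A match is a description of the letters and not a site. Where a gene had several promoters a match in any of them counted. The median number of CG dinucleotides, the highest of a gene's promoters, was 19 in the promoters of the 61 abundant subunits and 8 over all genes. Each motif itself holds a CG. The set of all genes was not matched to the subunits for CG content or level, so the shares compare unlike promoters. For 59 of 71 subunit promoters the first bases after the start were found in an annotated transcript of the gene. For each motif 1 subunit is shown, with 16 bases on either side and the motif in capitals. It is the most abundant whose first match on the gene's strand lies, with these flanks, before the start. The Atp5j window comes from 1 of 2 promoters of that gene and lies inside the annotated gene, chr16:84827866-84835625. The windows are from Cox6a1 at chr5:115349096-115349136, Uqcr11 at chr10:80406865-80406903 and Atp5j at chr16:84835040-84835080 (all minus strand).
Cox6a1: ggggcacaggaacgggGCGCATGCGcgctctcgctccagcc
Uqcr11: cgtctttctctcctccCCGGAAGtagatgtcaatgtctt
Atp5j: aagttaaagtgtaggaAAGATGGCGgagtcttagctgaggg

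Of the 5 subunits with a promoter there that were scarce in the gene tables, Cox7a1, Cox6b2, Cox8b and Cox7b2 had none of the motifs. Atp5g2 had the NRF1 motif, but it was not scarce in the kallisto layout, at 167.2 and 175.4 TPM. The counts of CG dinucleotides in these promoters were 7 for Cox7a1, 10 for Cox6b2, 2 for Cox8b, 10 for Cox7b2 and 20 for Atp5g2.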

How the data were processed

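The authors deposited, per the file headers, gene and transcript tables in the layout of RSEM (expected counts, TPM, a posterior standard deviation of the count, which is a score of assignment uncertainty, and for transcripts the percent of the gene's TPM) and a transcript table in the layout of kallisto (estimated counts and TPM). Notes deposited with the tables give mm10 as the build and GENCODE M21 as the annotation. Names and settings of the aligner and quantifiers are not given in the sources at hand. Replicate 1 had 29144892 gene counts and replicate 2 had 31755578, spike-ins held 0.516% and 0.484%, and entries with only a number 2.67e-05% and 9.4e-06%, all left out of gene totals.

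Expected counts were rounded for the exact binomial test, with TMM factors from edgeR 4.0.16 (limma 3.58.1, R 4.3.3) and alternatives with DESeq2 1.42.0 size factors, ERCC totals and edgeR's exact test. Log2 ratios have a prior count of 0.5. Kallisto-layout values were summed per gene, and 86 genes are absent from those tables. The test was run on simulated counts that varied by counting noise alone, so that check does not cover variation between libraries. Python 3.11.15, numpy 2.4.6, scipy 1.17.1, pandas 2.3.3 and matplotlib 3.10.9 were used.

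Shared windows were exact matches of 100 bases on the same strand, and coding sequences were compared without gaps. Coordinates are 1-based. A table of protein sequences was not used here. Named genes are the 3 highest and 2 lowest members of each complex, all genes of the 12 pairs, members under 1 TPM, the largest called ratios, the members with the highest assignment uncertainty and the highest 2 genes or any large called ratio of each other list. Subunits named for their catalytic or structural role, and the processed copies, were added after their values were seen. The members and the gene lists were chosen with earlier results of these data known. Some genes of these lists are not reported here.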

Additional observations from a re-analysis of the deposited data

How the results depend on the processing

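No paired analysis was possible because the series has 1 group. The 9 subunits called between the libraries became 45 with ERCC scaling, 17 with kallisto-layout counts and 0 with edgeR's exact test. Higher in replicate 1 were 0, and 1 with kallisto-layout counts. Higher in replicate 2 were 9, against 45, 16 and 0. Shares in that order of settings were 55.6%, 21.2% and 0% of the subunits tested, against 35.6%, 25.4% and 0.944% of all genes tested. With DESeq2 size factors or no count filter 8 were called (9.88% and 9.52%, against 22.7% and 13.6% of all genes). The median ratio of -0.03 became -0.14 with ERCC scaling and -0.07 with kallisto-layout counts. Among the other lists, ERCC scaling gave 4 complex I, 2 complex II, 0 complex III and 3 complex IV assembly factors, 1 of the subunits and carriers outside the rule, 2 regulators and 10 citric acid cycle genes, and kallisto-layout counts gave 2 complex I and 1 complex IV assembly factors, 1 subunit or carrier and 5 citric acid cycle genes. The all-gene shares of 35.6% and 25.4% stand beside these counts too.

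Median levels moved with the denominator. They were 195.4 TPM over all subunits, 158.1 (complex I), 122.6 (II), 308.7 (III), 357.8 (IV) and 301.2 (V) in the kallisto layout, and 245.5, 191.1, 197.4, 402.7, 351.4 and 355.5 when rescaled over nuclear protein-coding genes. Over detected subunits alone they were 114.6 in all, 188.3 for complex IV and 170.4 for complex V. Leaving out a library, complex I ranged from 85.23 to 92.35. The nuclear to mitochondrial log2 ratio was -3.59 in the kallisto layout and -3.91 with means. Coding and leading transcripts held 89.4% and 75.4% in the kallisto layout. At a limit of 2%, 5 members had uncertain assignment, against 2 at 5%. The Atp5g1 to Atp5g3 log2 ratio of -0.52 was called in the kallisto layout alone. The causes of these shifts were not tested. No pair ratio, median subunit ratio or nuclear to mitochondrial ratio changed sign under the alternatives run. Ratios of single subunits between the libraries did change sign. Those above 0 were 28 of 81 in the main fit, 5 with ERCC scaling and 15 of 80 with kallisto-layout counts. The order of complexes III to V and of complexes I and II, and the highest and lowest complex I genes, differed in the kallisto layout. Precision rests on 2 libraries, and genes under about 20 counts have wide counting intervals.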
